A study of Rattus norvegicus with 24 samples.

Results

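Whole testes of peripubertal male Fisher 344 rats that had met dibutyl phthalate (DBP) only before birth were compared with testes of rats given corn oil throughout. The 8 arrays compared are the 4 labelled DBP-oil and the 4 labelled oil-oil, out of 24 in the series, chosen by their titles. Dams of the DBP-oil pups were gavaged once a day with 50 mg/kg DBP in corn oil from gestational day 12 to 20, and dams of the oil-oil pups with corn oil alone. All 8 pups then received a single gavage of corn oil on postnatal day 35 (PND35), and the testis was taken 6 hours later. Each array holds the RNA of 1 pup on an Affymetrix Rat230_2 array, which reads a gene through 1 or more probe sets near the end of its transcript. The labels do not tie a pup to a litter or dam, so p-values here measure the spread between pups as labelled. Other arrays of the series are used where the text says so. They are the PND35 groups oil-DBP and DBP-DBP, whose second gavage was 500 mg/kg DBP, and fetal testes of gestational day 20 (GD20) from dams gavaged in the same way, 4 arrays with oil and 4 with 50 mg/kg DBP, of which 1 oil array is labelled as pooled.

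DBP is a plasticizer whose monoester metabolite acts on the fetal rat testis. It is known for lowering testosterone synthesis in fetal Leydig cells, the interstitial cells that turn cholesterol into androgen, and for altering the Sertoli cells that enclose the germ cells and the gonocytes that precede spermatogonia. Around puberty a new population of Leydig cells matures and the first wave of germ cells reaches the spermatid stage, so the testis read at PND35 is a different tissue from the one that was exposed. The comparison asks whether any transcript difference is still measurable once exposure has long ended, and how large a difference the 8 arrays could have missed.

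The deposited values are linear intensities, and every array had been scaled to the same trimmed mean. Differences are given as DBP-oil minus oil-oil on the log2(intensity + 16) scale with the standard error (SE) of a moderated fit, and intensities as mean ± SD over 4 arrays. Median intensity per array ran from 100.8 to 106.7 in oil-oil and from 100.9 to 108.1 in DBP-oil. RNA integrity numbers in the labels averaged 8.43 in oil-oil (8.2 to 8.6) and 8.78 in DBP-oil (8.6 to 8.9). That gap gave p = 0.0571 in an exact permutation test, two-sided, where 0.0286 is the smallest possible, and 0.129 after adjustment over 3 quality measures. The ratio of 3′ to 5′ signal of actin averaged 2.48 and 2.18 (exact permutation p = 0.2), and that of Gapdh 1.08 and 0.973 (exact permutation p = 0.0857). Bacterial poly-A transcripts spiked into the RNA stood between 5.9 and 6.06 (log2) on all oil-oil arrays and on the DBP-oil arrays of pups 123 and 127, at 5.95 and 6.04. They stood at 7.52 and 7.5 on those of pups 132 and 134, so results that lean on 1 pair of these pups are given for both pairs. Trizol extraction was used for oil-oil pup 104 and a column kit for the other 7.

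Of 31042 probe sets 1 passed an adjusted p of 0.05 (0.00322%) in a moderated test with limma, a probe set of the splicing regulator Tra2a that was higher in DBP-oil. At an unadjusted p under 0.05 there were 2299 (7.41%), of which 1198 were higher and 1101 lower, where 1552 would pass that threshold if nothing differed. Intensities of the groups did not overlap for 1266 probe sets (4.08%), 634 of them higher and 632 lower in DBP-oil. No gene passed when each was read by its brightest probe set, and 922 of 14217 genes (6.49%) had an unadjusted p under 0.05, 350 higher (2.46%) and 572 lower (4.02%). Distances between arrays showed no wide gap. The SD of the log2 differences between 2 arrays had a median of 0.304 within oil-oil, 0.288 within DBP-oil and 0.314 between the groups.

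How small a difference had to be to go unnoticed was measured separately. For each probe set the difference was tested against a rise and against a fall of 1.5-fold (0.585 on the log2 scale), and a probe set that rejected both after adjustment is called bounded within 1.5-fold. Of the 15677 probe sets with a mean intensity of at least 100 over the 8 arrays, called bright here, 12566 were bounded within 1.5-fold (80.2%) and 15511 within 2-fold (98.9%). Among the 2660 with a mean of at least 2000 the first share was 96.7%, among the 7649 between 100 and 500 it was 64.7%, and among the 15365 under 100 it was 5.41%. Read by the brightest probe set of each gene, 8596 of 14217 genes were bounded within 1.5-fold (60.5%). No probe set could be bounded within 0.32 on the log2 scale. With the RNA integrity number as a covariate 7091 bright probe sets were bounded within 1.5-fold. The 95% interval of a bright probe set reached a median of 0.28 (1.21-fold) to either side of its estimate. With the interval widened for all 31042 probe sets (Bonferroni) the median half-width was 0.89 (1.85-fold). Calls here use the Benjamini-Hochberg adjustment instead, which can ask for less once several probe sets pass. Bright probe sets beyond 2-fold numbered 4 in this comparison. The contrast of oil-DBP with oil-oil, which shares the oil-oil arrays, had 426.

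**Figure D1:**
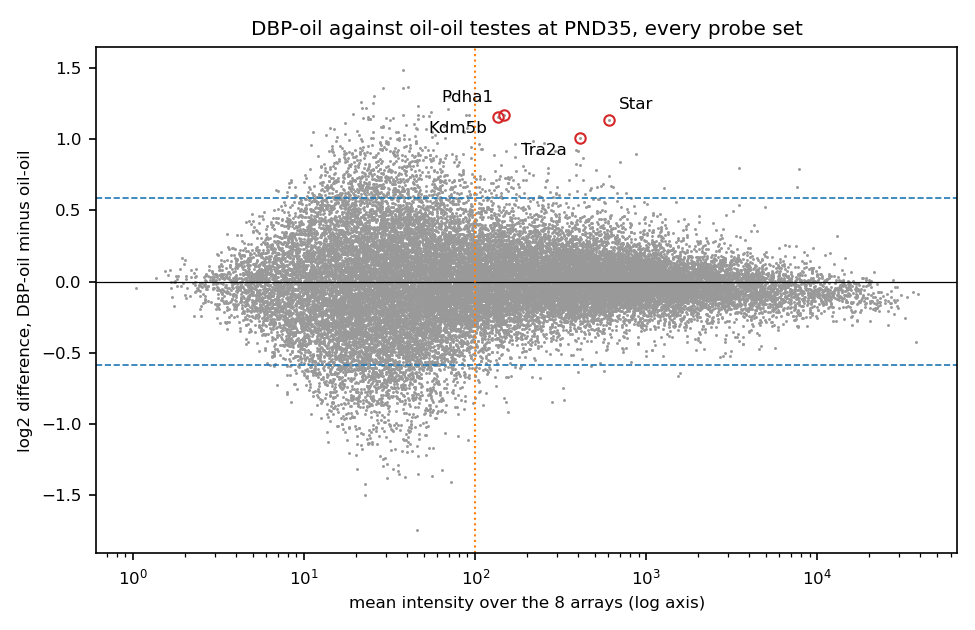
Mean intensity of each of 31042 probe sets over the 8 arrays (log axis) against its log2 difference, DBP-oil minus oil-oil. Dashed lines mark 1.5-fold, the dotted line an intensity of 100, and circles the 4 bright probe sets beyond 2-fold, all higher in DBP-oil. The cloud narrows to the right, where 96.7% of the probe sets with a mean of at least 2000 were bounded within 1.5-fold.

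Steroidogenesis is the pathway most tied to fetal DBP, and 0 of its 15 measured genes passed the test at PND35. The one that stood apart in level was Star, which carries cholesterol to the inner mitochondrial membrane and so feeds the pathway. Star read 422, 486, 212 and 286 in the oil-oil pups and 345, 723, 1050 and 1300 in the DBP-oil pups. Only 1 of the 4 DBP-oil pups, pup 123, lay inside the oil-oil range, and the other 3 lay above it. A second, dimmer Star probe set differed by 0.43 ± 0.24 (unadjusted p = 0.0943). The difference of the brighter one was 1.14 ± 0.33 (95% interval 0.45 to 1.82, unadjusted p = 0.00242, adjusted p = 0.334). It was 0.57 for pups 123 and 127 and 1.70 for pups 132 and 134, whose spike-in level differs from that of every oil-oil array, and the part of that class in the value was not tested. In the oil-DBP pups, set against the same oil-oil pups, Star was higher by 1.11 ± 0.33.

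Of the enzymes that act after Star, Cyp11a1, which cuts the cholesterol side chain, averaged 710 ± 118 and 700 ± 225, a difference of -0.09 ± 0.32. Cyp17a1, the hydroxylase and lyase of androgen synthesis, averaged 8606 ± 1217 and 7819 ± 1598 (-0.17 ± 0.24). Both intervals include 0, and both exclude a 2-fold change but not a 1.5-fold one. Hsd3b1, which makes the first steroids with a 4-ene-3-one ring, read 3966, 3634, 5160 and 4017 in oil-oil and 2534, 2550, 3732 and 3801 in DBP-oil. DBP-oil pups 123 and 127 lay below every oil-oil pup and pups 132 and 134, of the other spike-in level, inside the oil-oil range, with a difference of -0.44 ± 0.15 (unadjusted p = 0.00673, adjusted p = 0.424). Scarb1, which takes up cholesterol esters, and Lhcgr, the receptor for luteinizing hormone, were bounded within 1.5-fold at 0.03 ± 0.19 and -0.05 ± 0.15. Nr5a1, the transcription factor that drives most of these genes, stood at -0.26 ± 0.21 and was bounded within 2-fold only, with -0.05 for pups 123 and 127 and -0.47 for pups 132 and 134. Over the whole list the median was -0.09, beside -0.03 over all genes, 7 of 13 bright members (53.8%) were bounded within 1.5-fold, beside 85.7% of all bright genes, and the summed intensity ran from 22099 to 27485 in oil-oil and from 18020 to 24885 in DBP-oil. In whole tissue such sums cannot tell fewer cells of a type from less RNA per cell.

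Insl3, the Leydig cell peptide needed for testis descent, varied more within the groups than between them. It read 5650, 4175, 2489 and 2317 in oil-oil and 3142, 3536, 2150 and 1524 in DBP-oil. The difference of -0.49 ± 0.40 has an interval from -1.33 to 0.34, wide enough to hold a change of 2-fold downward as well as no change. It was -0.02 for pups 123 and 127 and -0.96 for pups 132 and 134. The list of Leydig cell identity and maturation, 13 measured genes with Insl3 among them, had the lowest median of the 31 lists at -0.20, with 0 past the test and 0 at an unadjusted p under 0.05. Of these, Dlk1, carried by immature Leydig cells, averaged 76.4 ± 21.3 and 101 ± 25 (0.33 ± 0.24), and Retsat, a retinol saturase and the member of smallest p, differed by -0.20 ± 0.14. Among the 8 bright members of the list 5 (62.5%) were bounded within 1.5-fold, beside 85.7% of all bright genes.

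Each of the 16 measured genes of cholesterol synthesis and uptake was bounded within 1.5-fold, beside 85.7% of all bright genes, and 0 passed the test. At an unadjusted p under 0.05, 1 was higher and 3 were lower. That is 25% of the list, the largest share of the 31 lists, beside 6.49% of all genes. For the lower ones the shares are 18.8% and 4.02%. Idi1, the isomerase that interconverts the isoprene building blocks, read 3892, 4403, 3857 and 4028 in oil-oil and 3571, 3300, 3229 and 3046 in DBP-oil. The groups did not overlap for Idi1, and the difference of -0.32 ± 0.09 (adjusted p = 0.342) is still inside the bound. Fdps (-0.24 ± 0.10) and Srebf2 (-0.22 ± 0.10), a synthase of the same branch and the regulator of the pathway, were lower at an unadjusted p under 0.05. Insig1, which holds that regulator back, was higher at 0.26 ± 0.09.

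Sertoli cells, which carry the germ cells and make the hormone signals of the tubule, had 0 genes past the test. Of 15 bright Sertoli cell markers 13 (86.7%) were bounded within 1.5-fold, near the 85.7% of all bright genes, and of 18 bright genes of Sertoli cell junctions and cytoskeleton all 18 were. In the second list Tjp1, a tight junction scaffold, had the smallest p (-0.18 ± 0.09). Amh, the hormone that regresses the Müllerian ducts, averaged 318 ± 38.7 and 356 ± 36.5 (0.14 ± 0.12). Inha and Inhbb, subunits of inhibin, differed by -0.12 ± 0.11 and 0.08 ± 0.15, and Clu, an abundant secreted chaperone, by -0.07 ± 0.09. All 4 were bounded within 1.5-fold. Testin, a protein of Sertoli cell junctions that was higher with DBP at GD20, averaged 159 ± 82.2 and 176 ± 73.3 at PND35, with a difference of -0.10 for pups 123 and 127 and 0.46 for pups 132 and 134.

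The Sertoli gene that differed most in level was Rhox5, an androgen-responsive homeobox gene, at a low signal. It read 9.63, 7.47, 37.7 and 40.9 in oil-oil and 90.5, 46.6, 57.5 and 78 in DBP-oil. The groups did not overlap, and the difference was 1.14 ± 0.34 (unadjusted p = 0.00332, adjusted p = 0.354). Since oil-oil values lie near the floor, its size turns on the pseudocount, with 1.76 at a pseudocount of 1 and 0.58 at 64. In DBP-DBP against oil-DBP it was -0.48 ± 0.34. The oil-DBP pups, which had no fetal DBP, read 74.6, 91.3, 59.6 and 50.7 for Rhox5. They also lay above every oil-oil value, and Rhox5 was higher and passed the test in oil-DBP against oil-oil. Of the 7 bright genes in the list of androgen-responsive Sertoli cell genes, all 7 were bounded within 1.5-fold, beside 85.7% of all bright genes. The median of the 10 measured genes of that list was 0.00.

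No germ cell gene on the lists passed the test. Sycp3, of the axis of meiotic chromosomes, averaged 14081 ± 916 and 14210 ± 585, with a 95% interval from -0.17 to 0.17. Of 13 bright spermatocyte genes 11 (84.6%) were bounded within 1.5-fold, and of 18 bright spermatid genes 15 (83.3%), both near the share of all bright genes. Smc1b, a meiotic cohesin subunit, had the smallest p of the spermatocyte genes (-0.17 ± 0.08). Prm1, which packs sperm DNA, read 38155, 36207, 36277 and 30081 in oil-oil and 28480, 32572, 32167 and 25876 in DBP-oil. The groups overlapped in that the lowest oil-oil pup lay inside the DBP-oil range, and the difference of -0.26 ± 0.11 (unadjusted p = 0.0331, adjusted p = 0.615) was bounded within 1.5-fold.

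Across the spermatid list 17 of 19 genes lay below 0, with a median of -0.15, beside 6098 of 14217 genes above 0 and a median of -0.03 over all genes. Their summed intensity ran from 177808 to 236370 in oil-oil and from 159154 to 209555 in DBP-oil, so the ranges overlap. These genes share cells and arrays, and the count is a description. In oil-DBP against the same oil-oil pups, without fetal DBP, the median of the list was -0.39, beside -0.11 over all genes. There 5 of the 19 passed, beside 1724 of 14217 genes, with Prm1 at -0.42. In DBP-DBP against oil-DBP the median of the list was 0.02. Among 14 genes of gonocytes and spermatogonia, Kit, the receptor of differentiating spermatogonia, differed by 0.10 ± 0.23. Neurog3, of early spermatogonia, was at an unadjusted p under 0.05 (-0.94 ± 0.34), but its 4 DBP-oil values of 2.17 to 6.79 and an oil-oil value of 5.36 are near the floor of the array.

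**Figure D2:**
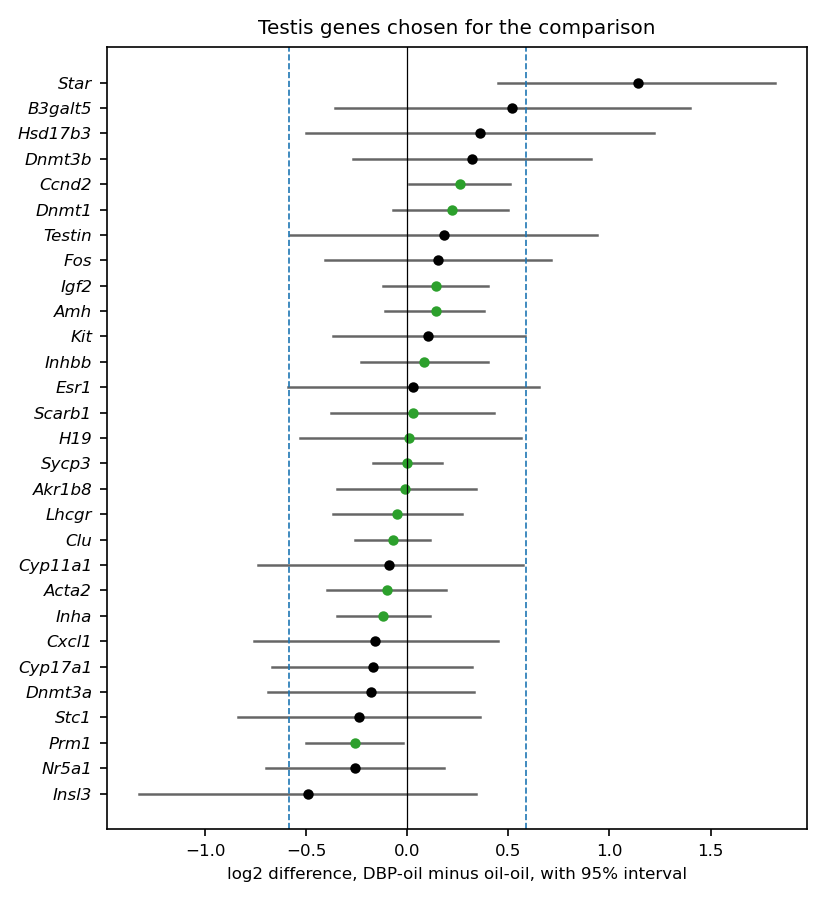
Log2 difference, DBP-oil minus oil-oil, with its 95% interval for 29 genes of Leydig, Sertoli and germ cells, growth, methylation and acute response. Green marks genes bounded within 1.5-fold, such as Sycp3 and Clu, and Star lies farthest to the right at 1.14.

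Of the other cells of the testis, the peritubular myoid list had 3 of 13 genes (23.1%) lower at an unadjusted p under 0.05, beside 4.02% of all genes, and 0 past the test. They were Tagln (-0.33 ± 0.12), Cald1 (-0.26 ± 0.11) and Tpm2 (-0.19 ± 0.09), which bind or regulate actin, while Acta2, the smooth muscle actin, differed by -0.10 ± 0.14. For pups 123 and 127 Tagln stood at -0.10 and Acta2 at 0.17, and for pups 132 and 134 at -0.57 and -0.38. Of 13 bright members 12 (92.3%) were bounded within 1.5-fold, beside 85.7% of all bright genes. In the endothelial list 2 of 12 (16.7%) were lower at that level, Kdr, a receptor for vascular growth factor, and Cav1, of caveolae. Kdr stood at -0.83 for pups 123 and 127 and at -0.28 for pups 132 and 134. Only 3 of 7 bright endothelial genes (42.9%) were bounded within 1.5-fold. For 16 macrophage and leukocyte genes the median was -0.10, beside -0.03 over all genes, and 2 lay above 0, beside 6098 of 14217. The summed intensity ran from 6777 to 8171 in oil-oil and from 5584 to 7089 in DBP-oil. Only 3 of 9 bright members (33.3%) were bounded within 1.5-fold, beside 85.7% of all bright genes. Aif1 (-0.32 ± 0.14) and RT1-Da (-0.34 ± 0.16) were lower at an unadjusted p under 0.05, whereas the macrophage markers Cd68 and Cd163 differed by 0.00 ± 0.23 and -0.05 ± 0.27. Markers of adrenal gland and kidney summed to 262 to 470 in oil-oil and 333 to 489 in DBP-oil, close to background. The 6 epididymal genes, 2 of them bright, summed to 5772 to 6133 and 5115 to 5664. Most of that was Spink8, at 4649 to 4940 in oil-oil and 4056 to 4673 in DBP-oil. Blood genes summed to 9784 to 12150 in oil-oil and 7279 to 10825 in DBP-oil.

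No chromatin or imprinted gene on the lists passed the test. Of 19 bright genes of DNA methylation and histone modification 18 (94.7%) were bounded within 1.5-fold, beside 85.7% of all bright genes. The median of the list was 0.02, with 0 of 22 past the test. Dnmt1, the maintenance methyltransferase, differed by 0.22 ± 0.14, and Dnmt3a and Dnmt3b, which set new methylation, by -0.18 ± 0.24 and 0.32 ± 0.28. Kdm5b, a histone demethylase, was higher by 0.19 ± 0.08 at its brightest probe set (unadjusted p = 0.0238). Another Kdm5b probe set, among the 4 bright ones beyond 2-fold, differed by 1.16 ± 0.31 (unadjusted p = 0.00143, adjusted p = 0.285). All 10 bright imprinted genes were bounded within 1.5-fold, and the 20 measured ones had a median of 0.03, with the smallest p for Grb10, a growth factor receptor adaptor (0.13 ± 0.08). Igf2, the imprinted growth factor, differed by 0.14 ± 0.13, and H19, the noncoding RNA beside it, by 0.01 ± 0.26, with -0.27 for pups 123 and 127 and 0.29 for pups 132 and 134.

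No stress or defence gene on the lists passed the test here. All 13 genes of heat shock and the unfolded protein response were bounded within 1.5-fold, beside 85.7% of all bright genes, with the smallest p for the stress factor Atf4 (0.10 ± 0.10). Fos, an immediate early gene, averaged 21.8 ± 15.2 and 24.7 ± 8.21 in the pups of this comparison, and Cxcl1, a neutrophil attractant, 8.99 ± 7.58 and 6.48 ± 5.39. In oil-DBP against the same oil-oil pups these 2 genes rose by 4.87 and 7.11 on the log2 scale. The medians of the immediate early and inflammation lists were -0.04 and -0.06 in DBP-oil against oil-oil and 2.00 and 2.63 in that second contrast. Of 27 genes in each list, 23 and 22 passed the test there, beside 1724 of all 14217 genes, and 0 and 0 passed here. Of their bright members 10 of 14 (71.4%) and 4 of 10 (40%) were bounded within 1.5-fold here, beside 85.7% of all bright genes. The smallest p in these lists belonged to Egr2, a zinc finger factor, at 0.64 ± 0.26 (unadjusted p = 0.0213), and Bcl3, a cofactor of NF-kappaB, at -0.96 ± 0.32 (unadjusted p = 0.00717). Both are dim, and Bcl3 stood at -1.59 for pups 123 and 127 and at -0.32 for pups 132 and 134. Of the apoptosis genes, Mcl1, which protects cells, was higher by 0.33 ± 0.11 and Bbc3, which kills them, lower (-0.58 ± 0.21), each at an unadjusted p under 0.05 only.

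In lipid metabolism 3 of 21 genes of fatty acid oxidation and PPAR targets (14.3%) were lower at an unadjusted p under 0.05, beside 4.02% of all genes, and 0 passed the test. Angptl4, a secreted inhibitor of lipoprotein lipase and a PPAR target, read 347, 323, 452 and 326 in oil-oil and 212, 147, 245 and 187 in DBP-oil. Every DBP-oil pup lay below every oil-oil pup, with a difference of -0.85 ± 0.18 (unadjusted p = 0.000142, adjusted p = 0.163). It was -0.94 for pups 123 and 127 and -0.75 for pups 132 and 134, and -0.03 ± 0.18 in DBP-DBP against oil-DBP. Acaa2, a thiolase of mitochondrial oxidation, was lower (-0.29 ± 0.09) and was bounded within 1.5-fold.

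Over all 31 lists 473 of 549 genes were measured, and 0 of them passed the test. At an unadjusted p under 0.05 there were 33 (6.98%), against 6.49% of all genes, and of 340 bright ones 274 (80.6%) were bounded within 1.5-fold, against 85.7% of all bright genes. In 5 lists the median lay beyond 0.1 in size, all of them below 0, and they were the lists for Leydig cell identity, blood, epididymis, spermatids and adipose tissue. The genes of smallest p in the lists of other tissues were Hemgn for blood (-0.49 ± 0.28), Spink8 for epididymis (-0.18 ± 0.08), Cfd for adipose tissue (-0.54 ± 0.22) and Dbh for adrenal gland and kidney (0.83 ± 0.41). The oil-oil values of Dbh, 5.77 to 10.5, are near the floor of the array.

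The probe set that passed is the dimmer of the Tra2a pair and read 214, 268, 203 and 391 in oil-oil and 531, 541, 570 and 546 in DBP-oil. The DBP-oil values lay close together and above every oil-oil value, with means of 269 ± 86.4 and 547 ± 16.7. The oil-DBP pups, which had no fetal DBP, read 425, 462, 431 and 493 and also lay above every oil-oil value. The difference was 1.01 ± 0.15 (95% interval 0.70 to 1.32, limma adjusted p = 0.0372), and it was 1.01 for pups 123 and 127 and 1.00 for pups 132 and 134. The brighter Tra2a probe set read 1109, 1122, 1239 and 1162 in oil-oil and 1096, 1161, 1217 and 1249 in DBP-oil. The ranges there coincide, and the difference of 0.01 ± 0.09 was bounded within 1.5-fold. The probe sets of this gene therefore give different answers. The call was lost, at adjusted p values from 0.0857 to 0.425, in 14 of 26 other settings. The difference was 0.89 to 1.02 in 13 of these and 0.76 ± 0.15 with the ratio of 3′ to 5′ actin signal as a covariate. Over all probe sets the count called was 14 without oil-oil pup 120, 9 without oil-oil pup 110, and 0 without any 1 of oil-oil pups 104 and 114 or DBP-oil pups 123, 127, 132 and 134. With the RNA integrity number as a covariate it was also 14, and these included Tra2a, Swi5, Eml2, Ttk, Rad23b and both dimmer probe sets of Cirbp.

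Genes nearest to a call, taken as the 10 of smallest p in each direction, did not pass. Bst2, an interferon-inducible antiviral membrane protein, read 628, 590, 685 and 468 in oil-oil and 992, 982, 982 and 768 in DBP-oil. The groups did not overlap, and the difference was 0.63 ± 0.12 (adjusted p = 0.138). Swi5, a cofactor of recombination, read 5616, 8177, 5261 and 4028 against 11104, 9005, 9580 and 9641, a difference of 0.79 ± 0.17 (adjusted p = 0.163). Each has only 1 probe set, so no other probe set of the gene could be compared, and every DBP-oil pup was above every oil-oil pup.

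Peds1, an enzyme of plasmalogen synthesis, read 202, 182, 236 and 226 in oil-oil and 328, 337, 364 and 325 in DBP-oil. Its groups stood well apart, and the difference was 0.63 ± 0.13 (adjusted p = 0.144), while DBP-DBP against oil-DBP gave -0.22 ± 0.13. Pip5k1a, a phosphoinositide kinase, differed by 0.78 ± 0.16, and Pbrm1, a subunit of a chromatin remodeller, by 0.49 ± 0.11. Hspa4, a heat shock cofactor, differed by 0.79 ± 0.18, and U2af1, which recognises the splice acceptor, by 0.41 ± 0.09. The other 3 were Aph1a, of gamma-secretase (0.50 ± 0.11), Klf13, a zinc finger factor (0.67 ± 0.15), and Eml2, a microtubule protein (1.08 ± 0.25). Adjusted p lay between 0.138 and 0.171 for these 10 genes. None of the groups overlapped, as for 4.08% of all probe sets, but the genes were picked for small p. In oil-DBP against the same oil-oil pups, without fetal DBP, Hspa4 (1.02), Eml2 (1.2), Peds1 (0.81), Pip5k1a (0.67) and Aph1a (0.48) were also higher and passed. There Bst2 (0.3), Klf13 (0.18), U2af1 (0.16), Swi5 (0.15) and Pbrm1 (0.1) did not pass.

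Of the lower genes, Chd4, the helicase of a deacetylase complex, read 1347, 1217, 1290 and 1199 in oil-oil and 858, 1061, 887 and 1014 in DBP-oil. The groups did not overlap, and the difference was -0.42 ± 0.09 (adjusted p = 0.163). That is the brightest Chd4 probe set. Another differed by -0.23 ± 0.15 and was bounded within 1.5-fold, and a dim one went the other way at 0.91 ± 0.36. Atp5mk, a small subunit of ATP synthase, read 8928, 7653, 9097 and 7934 against 6791, 7091, 6657 and 6783. Every DBP-oil pup was below every oil-oil pup, yet the difference of -0.31 ± 0.07 (adjusted p = 0.173) was bounded within 1.5-fold. In DBP-DBP against oil-DBP it was -0.26 ± 0.07.

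Rgs18, a regulator of G-protein signals in blood cells, had the largest difference of the lower genes at -1.41 ± 0.32, with DBP-oil values from 8.69 to 72.3 and oil-oil values from 99.2 to 134. Its DBP-oil values of 8.69 and 20 are near the floor of the array, and the difference ran from -1.93 to -0.82 over other settings. RT1-Bb, an antigen-presenting class II molecule, read 4374, 4162, 3087 and 2977 in oil-oil and 2862, 2730, 2332 and 2237 in DBP-oil. The difference of -0.52 ± 0.13 (adjusted p = 0.226) was -0.35 for pups 123 and 127 and -0.70 for pups 132 and 134. It goes beside the lower summed leukocyte signal given above, whose part in it was not tested. Sat1, of polyamine breakdown (-0.55 ± 0.13), Tcirg1, a proton pump subunit (-0.82 ± 0.19), Ly6g6c (-0.63 ± 0.16) and Gpx1, a peroxidase (-0.38 ± 0.10), did not overlap between groups. Ift20, of ciliary transport, did overlap (-0.50 ± 0.11). With Angptl4 these make 10, and adjusted p ranged from 0.163 to 0.234. In oil-DBP against the same oil-oil pups RT1-Bb was also lower and passed (-0.5). Sat1 (0.48), Gpx1 (0.33) and Angptl4 (1.56) were higher there and passed, and the others did not pass.

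**Figure D3:**
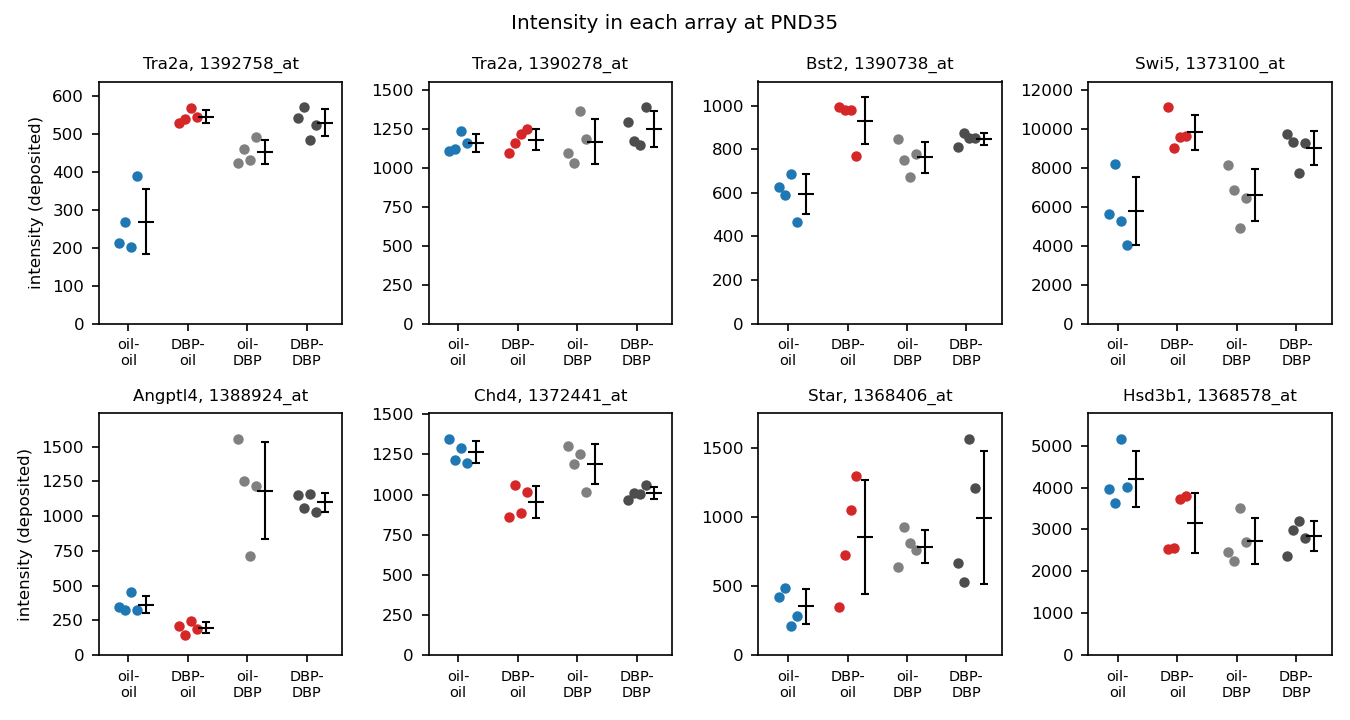
Intensity of 8 probe sets on each array of the 4 PND35 groups, with points for arrays and bars for mean ± SD. DBP-oil lies above oil-oil for the dimmer probe set of Tra2a (531 to 570 against 203 to 391) but not for its brighter probe set, and below it for Angptl4 and Chd4.

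Other probe sets of the same genes were compared, because those with the smallest p were often not a gene's main one. The 20 bright probe sets of smallest p, chosen after their values were seen, stand for 20 genes, and 18 were higher in DBP-oil. Of the 20, 14 were not the brightest probe set of their gene, beside 24.1% of all bright probe sets with 1 symbol. For 15 genes another bright probe set exists, 24 in all. Of those, 21 were bounded within 1.5-fold, beside 80.2% of all bright probe sets. At an unadjusted p under 0.05, 3 were higher, beside 5.12% of bright probe sets with 1 symbol. The 20 were picked for small p and the 24 were not, so part of the contrast in size follows from the choice.

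Keap1, the sensor that holds back NRF2, read 343, 380, 352 and 422 in oil-oil and 553, 565, 559 and 533 in DBP-oil at its dimmer probe set. The groups stood apart there (0.53 ± 0.11), but the brighter Keap1 probe set differed by 0.02 ± 0.10. Ttk, a kinase of the spindle checkpoint, gave 0.57 ± 0.10 at its dimmer probe set and 0.14 ± 0.09 at its brighter one. Sf3b1, a core splicing factor, gave 0.54 ± 0.11 and 0.05 ± 0.08. Rad23b, of DNA repair, gave 0.87 ± 0.17 and 0.03 ± 0.08. Cirbp, a cold-inducible RNA-binding protein, gave 0.65 ± 0.14 and 0.84 ± 0.19 at a pair of probe sets and -0.13 ± 0.12 at its brightest. In each of these genes the dimmer probe set was higher in DBP-oil and the brightest was bounded within 1.5-fold.

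**Figure D4:**
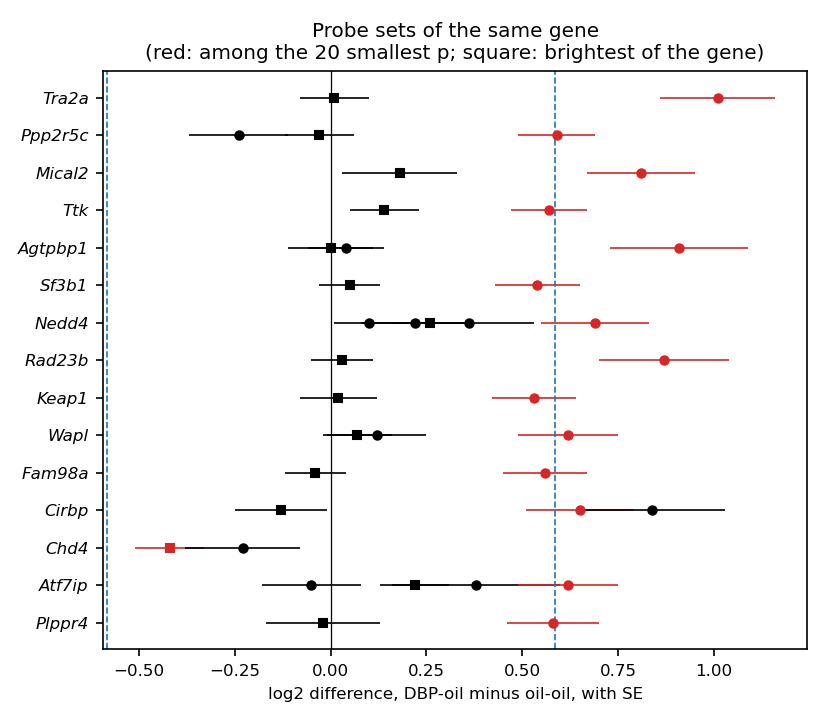
Log2 difference, DBP-oil minus oil-oil, with SE bars for every bright probe set of 15 genes. Red marks the probe set among the 20 of smallest p and squares the brightest of the gene, which lies near 0 in most genes while the red one lies between 0.53 and 1.01 for the higher ones.

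The split held across the array. Of 12865 bright probe sets with 1 gene symbol, 1102 (8.57%) had an unadjusted p under 0.05, 659 higher (5.12%) and 443 lower (3.44%). Among the 3105 that were not the brightest of their gene 429 were higher (13.8%) and 47 lower (1.51%), and among the 9760 brightest ones 230 were higher (2.36%) and 396 lower (4.06%). At mean intensities between 100 and 500 the higher shares were 12.5% and 2.04%. In DBP-DBP against oil-DBP the higher shares over all intensities were 14.3% and 6.92%, and between 100 and 500 they were 9.7% and 3.77%. With the RNA integrity number as a covariate 403 of the 3105 were higher (13%), and with the ratio of 3′ to 5′ actin signal 210 (6.76%). The count was 277 without oil-oil pup 104 and 592 without oil-oil pup 120. Integrity numbers were higher and 3′ to 5′ ratios lower in DBP-oil, as given above, and the part of RNA quality in the split was not tested beyond these fits.

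Animals that had met DBP in the womb and then again at PND35 were set against those given it at PND35 only, a comparison that shares no array with the first. Of 31042 probe sets 0 passed in that contrast (0%), and 2791 had an unadjusted p under 0.05 (8.99%), of which 1664 were higher. All DBP-DBP arrays carried the higher spike-in level and no oil-DBP array did, and there the effect of the fetal dose cannot be told apart from that level. The dimmer Tra2a probe set differed by 0.25 ± 0.15, Star by 0.25 ± 0.33, Bst2 by 0.18 ± 0.12 and Chd4 by -0.20 ± 0.09. Of the 20 candidate genes 17 (85%) had the same sign in both, 6 with an unadjusted p under 0.05. The sign was shared by 55.2% of all probe sets and by 68.6% of those with an unadjusted p under 0.05 in the first comparison. The median size of the candidates went from 0.63 to 0.20. They were picked for small p in the first comparison, so part of that fall follows from the choice. Without oil-DBP pup 105 the count called was 35.

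Of the 2299 probe sets with an unadjusted p under 0.05 in the oil-treated pups, 364 (15.8%) also had one in the same direction here, where 6.35% of all probe sets did. That share was 22.5% for the higher and 8.54% for the lower ones. The higher ones include the dimmer probe sets described above, and the dimmer Ttk probe set (0.59 ± 0.10) had an adjusted p of 0.0762, the smallest in that contrast. Averaged over both pairs of groups, 115 probe sets passed (0.37%), 98 of them higher, but 0 passed with spike-in class as a covariate, 31 without DBP-oil pup 132 and 188 without oil-oil pup 110. The difference between the pairs was called for 0 probe sets by limma, with 1466 at an unadjusted p under 0.05 and a smallest adjusted p of 0.672.

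Transcripts that fetal DBP had changed at the end of exposure were followed to puberty. At GD20, 137 probe sets passed (0.441%), 65 higher and 72 lower with DBP, with a median size of 0.64. At PND35, 0 of the 137 passed, 62 lay in their GD20 direction and 75 in the opposite one, and their median in the GD20 direction was -0.03. The 95% interval at PND35 lay below the GD20 change for 111 of them. At PND35, 62 of the 137 were bounded within 1.5-fold and 124 within 2-fold, beside 43.2% and 84.6% of all probe sets. By then 51 had a mean under 100, beside 15365 of all 31042.

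Stc1, a secreted glycoprotein, was higher by 1.74 at GD20 and differed by -0.24 ± 0.29 at PND35. Smpx, a small muscle protein, went from 1.54 to -0.25 ± 0.11, and Akr1b8, an aldose reductase, from 0.83 to -0.01 ± 0.17. Gatm, of creatine synthesis, went from 0.73 to 0.12 ± 0.12, and Naglu, a lysosomal enzyme that was lower at GD20, from -0.67 to 0.04 ± 0.14. For these 5 genes the interval at PND35 no longer reached the GD20 value. Ramp1 (-0.27), Hao2 (-0.53), Chchd4l1 (-0.20), Gde1 (-0.15) and Tmem178a (-0.26) were all higher with DBP at GD20, and none passed at PND35.

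Of the 137, 13 (9.49%) had an unadjusted p under 0.05 at PND35, not far from the 7.41% of all probe sets, and 2 of them lay in their GD20 direction. Ipo5, a nuclear import receptor, read 9.84, 22.3, 6.79 and 9.42 in oil-oil and 53.7, 70.4, 81.5 and 47.5 in DBP-oil at a dim probe set. The groups did not overlap (adjusted p = 0.205), but the oil-oil values are near the floor of the array and so are those of the oil arrays at GD20, so no fold is given. The other was a probe set of Mcl1 (0.36 ± 0.17).

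The remaining 11 went the opposite way, and 9 of them had been lower at GD20. Pafah1b1, a regulator of dynein, read 126, 391, 235 and 377 in oil-oil and 482, 549, 504 and 506 in DBP-oil. All DBP-oil pups lay above all oil-oil pups, a difference of 0.92 ± 0.23 (adjusted p = 0.237) after -1.21 at GD20. Ccnd2, a cyclin of proliferating Sertoli and germ cells, averaged 1177 ± 233 and 1421 ± 172 (0.26 ± 0.12) after -0.87 at GD20.

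**Figure D5:**
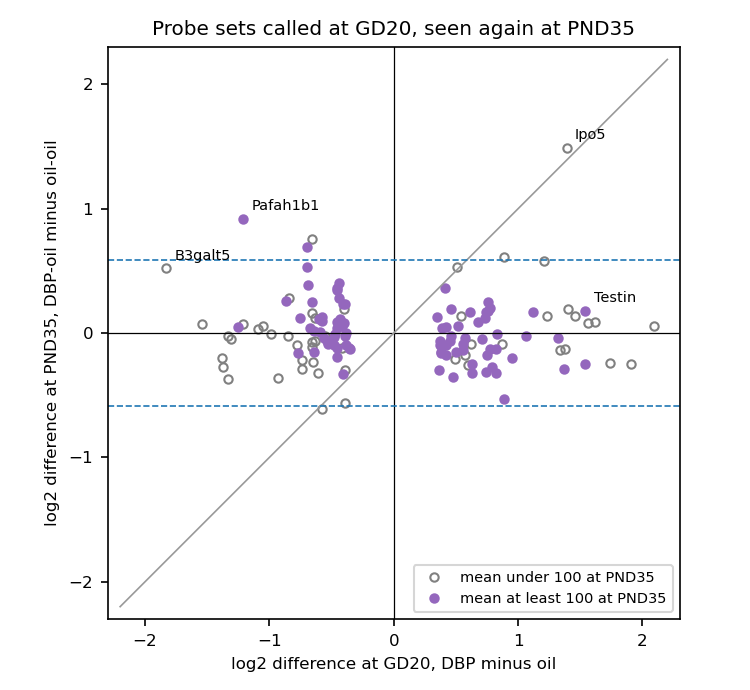
Log2 difference at GD20 (DBP minus oil) against that at PND35 (DBP-oil minus oil-oil) for the 137 probe sets called at GD20, with the identity line and lines at 1.5-fold. Filled points have a mean of at least 100 at PND35, and the points lie around 0 on the PND35 axis, not along the identity line.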

How the data were processed

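Each array gave 1 deposited intensity per probe set on a linear scale, made by the authors with GCOS 1.0, per the submitters' processing notes. The summary method within that software is unstated in the sources used here. All arrays had a mean of 500.135 to 500.194 after trimming 2% at each end. Of 31099 probe sets 57 controls were left out. Values were taken as log2(intensity + 16), and PND35 arrays were centred on their medians. The 16 PND35 arrays entered 1 model of 4 groups in limma 3.58.1 (R 4.3.3), with an intensity trend and Benjamini-Hochberg adjustment over 31042 probe sets (threshold 0.05). The GD20 arrays were fitted apart, as deposited. Bounds came from a pair of one-sided moderated tests, adjusted alike. Of the probe sets 20826 carry 1 symbol, 436 several and 9780 none, and a gene is read by its brightest probe set at PND35 (14217 genes). Named are the 10 genes of smallest p each way with a mean of at least 100 in either group, a list of 32 chosen genes, the gene of smallest p of each list described, and the 10 of smallest p at GD20. Tra2a, probe sets that are not the brightest, further list members and the nominal GD20 genes were named after their values were seen. Members and lists were chosen with earlier results of these data known. The number of arrays limits the precision. The scripts were tested on simulated data.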

Additional observations from a re-analysis of the deposited data

Results flagged for a closer look

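Among 200 groups of 4 arrays looked at, 9 held 1 array that stood far from the other 3, where chance gives about 5%. Of the oil-oil pups, pup 110 read 134 for Rgs18 (others 99.2 to 99.8) and pup 114 read 3.86 for Hsd17b3, the last enzyme of testosterone synthesis (others 49.5 to 66.9).

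Of the DBP-oil pups, pup 134 read 768 for Bst2 (others 982 to 992), 363 for Ly6g6c (others 455 to 472) and 574 for the dimmest bright probe set of Wapl (others 517 to 525). Pup 132 read 28.8 for the estrogen receptor Esr1 (others 59.3 to 60.9), 5.19 for Dbh (others 35.9 to 40.4) and 32.4 for Ahr (others 62 to 68.5). Pup 123 read 12.7 for Stc1 (others 43.4 to 46.9).

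The bacterial poly-A spike-ins, which are not transcripts of the rat and serve here only to class the arrays, stood at 7.52 and 7.5 (log2) in DBP-oil pups 132 and 134 against 5.9 to 6.06 in the oil-oil pups.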

How the results depend on the processing

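The single called probe set became 0 without the intensity trend, with only the 8 arrays compared, with extraction method as a covariate, without the 2 Trizol arrays, with spike-in class as a covariate, and without either pair of DBP-oil arrays. In these settings the Tra2a difference stayed between 0.91 and 1.01, beside 1.01. The count became 0 as well with the ratio of 3′ to 5′ actin signal as a covariate, an alternative chosen after seeing the data, where the difference was 0.76. The count became 14 with the RNA integrity number as a covariate. Leaving out 1 array gave 0 to 14, with 14 without oil-oil pup 120, 9 without oil-oil pup 110, and 0 without any of the other 6. The count of 12566 bounded probe sets became 7091 with the integrity number as a covariate and 0 at a bound of 0.32 on the log2 scale, and was 11184 to 11906 with 1 array left out. The 62 of 137 GD20 probe sets in their GD20 direction became 29 of 87 with dim probe sets left out, 114 of 265 at a GD20 threshold of 0.1, and 54 to 68 with 1 array left out. In DBP-DBP against oil-DBP the count of 0 became 7 with quantile normalization, 7 with dim probe sets left out, 1 without the trend, and 0 to 35 with 1 array left out (35 without oil-DBP pup 105). Over both pairs 115 became 200 with dim probe sets left out, 3 without the trend, 0 with spike-in class, and 31 (without DBP-oil pup 132) to 188 (without oil-oil pup 110) with 1 array left out. The 429 higher probe sets that were not the brightest of their gene became 277 (without oil-oil pup 104) to 592 (without oil-oil pup 120). The cause of these changes was not tested. Of 96 named probe sets 24 changed sign in at least 1 of 26 settings, and 0 of the 20 candidate genes did. No paired analysis was possible because the groups share no replicate numbers. With adjacent pups as a random block (correlation 0.0544) 1 probe set was called.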
